A study of Mus musculus with 44 samples.

Results

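Microglia, the resident macrophages of the brain, were compared between male mice carrying 2 copies and male mice carrying 1 copy of the T96K allele of Trem2, a microglial surface receptor. All of these mice also carried 5xFAD, a set of transgenes for mutant human amyloid precursor protein and presenilin that are driven by a neuronal promoter and lead to amyloid plaques. The 12 libraries were every library of the male table labelled 5xFAD;Trem2 T96K/T96K (n = 6, library numbers 5, 6, 10, 11, 15 and 24) or 5xFAD;Trem2 T96K/+ (n = 6, numbers 3, 4, 8, 9, 14 and 22), of 44 libraries in the series. The other 5 male libraries, 5xFAD with Trem2+/+, gave the reference level of the same table, and 7 female T96K/T96K and 9 female T96K/+ libraries, also 5xFAD, gave the same contrast in the other sex. All mice were 8 months old, and male mice without 5xFAD were not analysed here. The labels do not state outright that each library is a separate mouse, so the tests take the spread between libraries as the error, and part of that spread may be technical.

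TREM2 binds lipids, lipoproteins and anionic ligands and has no signalling tail of its own. It signals through the adaptor TYROBP (DAP12), which recruits the kinase SYK and, further down, PLCG2. In mouse models of amyloid, Trem2 is needed for the full switch of microglia from a homeostatic state, marked by P2ry12, Tmem119 and Cx3cr1, to the disease-associated (DAM) state, marked by Apoe, Cst7, Lpl, Spp1 and others. The comparison of 2 with 1 mutant alleles asks whether a second copy adds to the first, with no library in either group free of the mutation.

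Trem2 (ENSMUSG00000023992) lies on the + strand of chromosome 17 at 48485726 to 48493472 of mm9. Codon 96, a threonine codon of the reference, lies in exon 2 of 5 (48487782 to 48488132), at 48488027 to 48488029. The reference sequence of chr17:48487967-48488089 (mm9, + strand), 60 bases to either side of the codon, is shown because it is where the compared alleles differ, with codon 96 in capitals.
Trem2 codon 96: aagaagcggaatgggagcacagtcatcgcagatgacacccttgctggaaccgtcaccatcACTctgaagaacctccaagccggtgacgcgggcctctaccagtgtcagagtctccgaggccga
The T96K allele replaces this threonine with lysine. RPKM (a read count divided by gene length in kilobases and by library size) counts reads of both alleles alike, so the level of Trem2 cannot check the number of mutant alleles.

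Libraries held 5.96 to 29.8 M reads (M, mega) in T96K/+ and 6.93 to 32.2 M in T96K/T96K, with means of 11.7 ± 9.18 and 13.3 ± 9.49 M (SD, n = 6 each; exact two-sided permutation p = 0.593, where the smallest possible p is 0.00216). Genes at 1 RPKM or more numbered 13007 ± 228 and 12989 ± 258. The labelled cell type was checked against its markers: the summed level of 10 microglial genes, Csf1r, Cx3cr1 and C1qa among them, was 6547 to 10108 RPKM in T96K/+ and 6304 to 10676 RPKM in T96K/T96K, none at 0, against 13.6 to 34.2 and 11.7 to 45.1 RPKM for 11 neuronal genes. RNA of other cell types was also present: 10 endothelial genes summed to 698 to 2920 RPKM and 751 to 3097 RPKM, and 12 neutrophil genes to 1826 to 3832 RPKM and 2974 to 8478 RPKM. Xist stayed at or below 0.374 RPKM and Ddx3y at or above 11.9 RPKM in all 17 male libraries. Library 6 of the T96K/T96K group stands apart in several microglial genes; the main counts without it stand beside the overall comparison and, by list, beside the principal components.

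No gene was called different between T96K/T96K and T96K/+ males. Of 13845 genes tested with limma on log2(RPKM + 1), 0 (0%) had a Benjamini-Hochberg adjusted p under 0.05, and the smallest adjusted p was 0.999. At an unadjusted p under 0.05, 236 genes (1.7%) were higher and 106 (0.766%) lower in T96K/T96K, 342 (2.47%) in all, which is fewer than the 5% that an even spread of p would give. The median difference over all genes was 0.01 on the log2 scale with a median standard error of 0.127, and 55.0% of genes had a value above 0. On this scale the 95% interval of the difference stayed within 2-fold either way for 12685 genes (91.6%) and within 1.5-fold for 10643 (76.9%). The scale understates changes of low genes, so these shares do not bound their fold change in RPKM. Asprv1, for example, had means of 0.357 and 1.62 RPKM but a fold of 1.83 on this scale. Of the 13845 genes tested, 8337 passed a filter of 5 RPKM. Without library 6 the unadjusted count was 1048 of the 13845 genes (685 higher, 363 lower), which is more than that 5%. Again 0 genes were called, with a smallest adjusted p of 0.637. A weighted fit (voom) on reads recovered from the RPKM values, added after the data were seen, also called 0 genes and had 282 higher and 214 lower at an unadjusted p under 0.05. In bulk libraries of sorted cells, fewer cells of a type and less RNA per cell cannot be told apart.

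**Figure D1:**
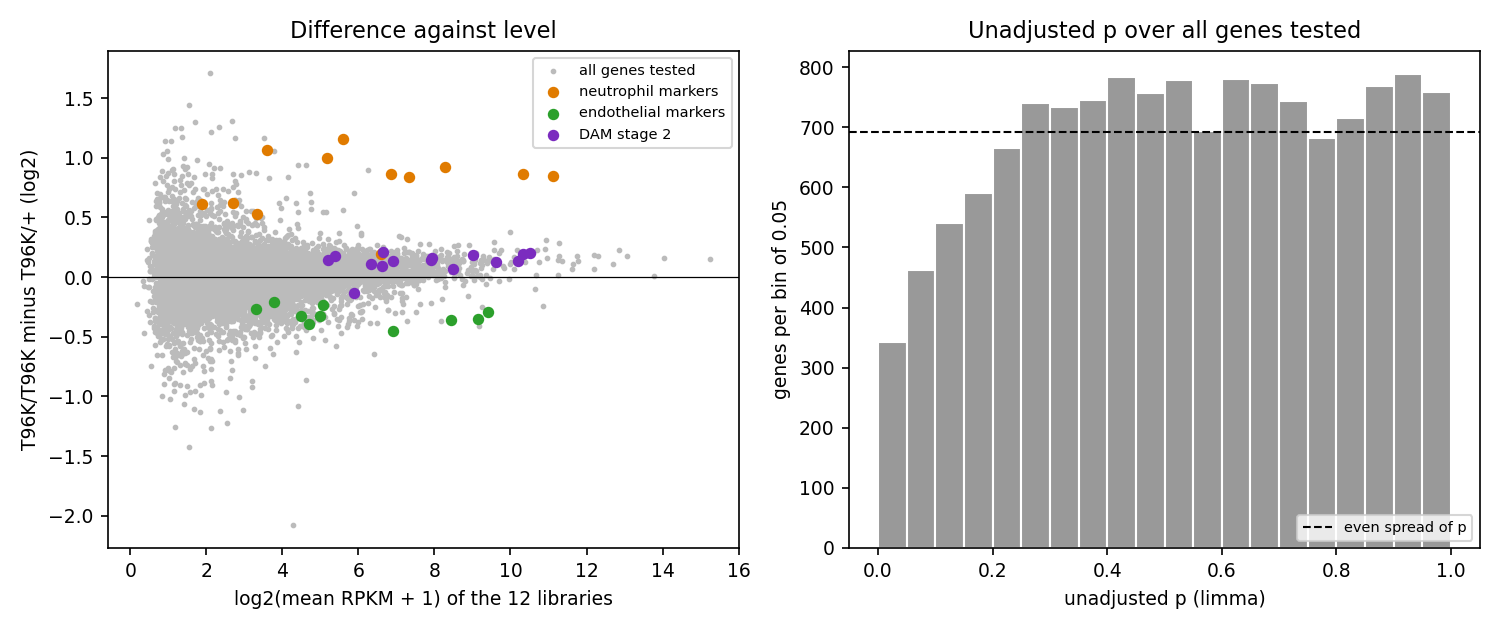
Left, the T96K/T96K minus T96K/+ difference of each of 13845 genes (log2 of RPKM + 1) against its mean level in the 12 libraries, with neutrophil markers (orange), endothelial markers (green) and DAM stage 2 genes (purple). Right, the number of genes in each 0.05 bin of unadjusted limma p, with a dashed line at an even spread; the lowest bin holds 342 genes and lies below the line.

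The receptor itself was measured at overlapping levels in both groups. Trem2 stood at 661, 623, 881, 874, 755 and 681 RPKM in T96K/+ libraries 3, 4, 8, 9, 14 and 22, and at 943, 508, 893, 788, 842 and 985 RPKM in T96K/T96K libraries 5, 6, 10, 11, 15 and 24. Library 6 was the lowest of all 12 and the other 5 T96K/T96K libraries lay within or above the T96K/+ range, so the groups overlapped. The means were 746 ± 111 and 826 ± 171 RPKM (SD, n = 6), beside 920.4 ± 108 RPKM in the 5 Trem2+/+ males. The log2 difference was 0.13 (95% interval -0.18 to 0.44; limma, unadjusted p = 0.391, adjusted p = 0.999). Without library 6 the value was 0.26 (0.03 to 0.50), with an adjusted p of 0.653.

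Tyrobp, the signalling adaptor, was measured at 5721, 5342, 8728, 8346, 6531 and 6301 RPKM in T96K/+ and at 9578, 4578, 7834, 7715, 8261 and 10663 RPKM in T96K/T96K, in the same library order as above. Again library 6 was lowest and library 24 highest, library 5 was also above the T96K/+ range, and libraries 10, 11 and 15 fell inside it. The log2 difference was 0.22 (-0.18 to 0.63; adjusted p = 0.999), and without library 6 it was 0.38 (0.04 to 0.72; adjusted p = 0.653). Of 18 tested genes of TREM2 signalling, 0 were called in either direction, 15 had a difference above 0 and the median was 0.08, beside 0.01 over all genes. The kinase Syk stood at 0.08, the phospholipase Plcg2 at 0.10, the lipid phosphatase Inpp5d (SHIP1), which opposes this pathway, at 0.05, and the sheddases Adam10 and Adam17, which cleave TREM2 from the surface, at -0.03 and -0.02.

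Genes of the disease-associated state had small positive point differences, none of which passed the test. In the DAM stage 1 list, 8 of 8 genes lay above 0 with a median of 0.18, and in the stage 2 list 14 of 15 did, with a median of 0.14; 0 were called, and 0 of either list reached an unadjusted p under 0.05. All 15 stage 2 genes had an interval within 2-fold and 10 of them within 1.5-fold. The mean log2 level of the stage 1 list was 11.95 in Trem2+/+, 11.44 in T96K/+ and 11.65 in T96K/T96K males. For stage 2 it was 8.02, 7.69 and 7.82, so T96K/T96K lay between the other groups in both lists. Neither T96K group was tested against Trem2+/+ here. Without library 6 the median differences were 0.29 and 0.26, with 0 called. In that fit 2 genes of each list had an unadjusted p under 0.05, beside 1048 of all 13845 genes (685 higher). Rescaling the libraries by quantile normalization gave medians of 0.08 and 0.04, with 5 of 8 and 10 of 15 above 0. Among genes tied to amyloid plaques, 19 of 24 lay above 0 with a median of 0.17 and 0 called, from Dkk2, a Wnt antagonist, at -0.19 to Capg, an actin-capping protein, at 0.33 (-0.04 to 0.70).

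Apoe, which encodes the main apolipoprotein of the brain, was the least evenly measured of these genes. T96K/+ libraries ranged narrowly, at 1276, 1367, 1773, 1752, 2298 and 1389 RPKM. T96K/T96K libraries were at 1534, 1449, 1371, 1349.7, 3110.4 and 4952 RPKM, so that libraries 15 and 24 exceeded every T96K/+ value and the other 4 lay inside the T96K/+ range. The Trem2+/+ males were as uneven, from 1813 to 7960.3 RPKM. The log2 difference of Apoe was 0.31, with an interval from -0.52 to 1.14 that does not exclude a 2-fold higher level.

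Cst7, which encodes the protease inhibitor cystatin F and is among the genes most strongly tied to the DAM state, stood at 1041, 1009, 1626, 1652, 1519.8 and 1204 RPKM in T96K/+. In T96K/T96K it was at 1764, 828, 1447, 1287, 1870.4 and 2347 RPKM. The lowest and the 3 highest of the 12 values were T96K/T96K libraries, and the groups overlapped (log2 difference 0.20, interval -0.28 to 0.68). Spp1, which encodes the secreted matrix protein osteopontin, was at 227 ± 87.7 and 257 ± 92.3 RPKM (difference 0.16, -0.41 to 0.73). Gpnmb, a lysosome-associated glycoprotein, was at 38.1 ± 9.42 and 43.0 ± 8.86 RPKM (0.18, -0.17 to 0.53). The difference was 0.09 for Lpl (lipoprotein lipase), 0.15 for the growth factor Igf1, 0.19 for the tetraspanin Cd9, 0.14 for the receptor kinase Axl and 0.07 for the beta-glucan receptor Clec7a. Itgax, which encodes the integrin CD11c, was the only stage 2 gene with a negative value, at 60.5 ± 14.8 and 55.7 ± 14.2 RPKM (-0.13, -0.57 to 0.31). Lyz2, the macrophage lysozyme, had the largest value of the DAM lists, 0.38 (-0.15 to 0.91), with libraries 5 and 24 at 1384 and 1858 RPKM and library 6 at 585 RPKM; T96K/+ ran from 692 to 1051 RPKM.

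**Figure D2:**
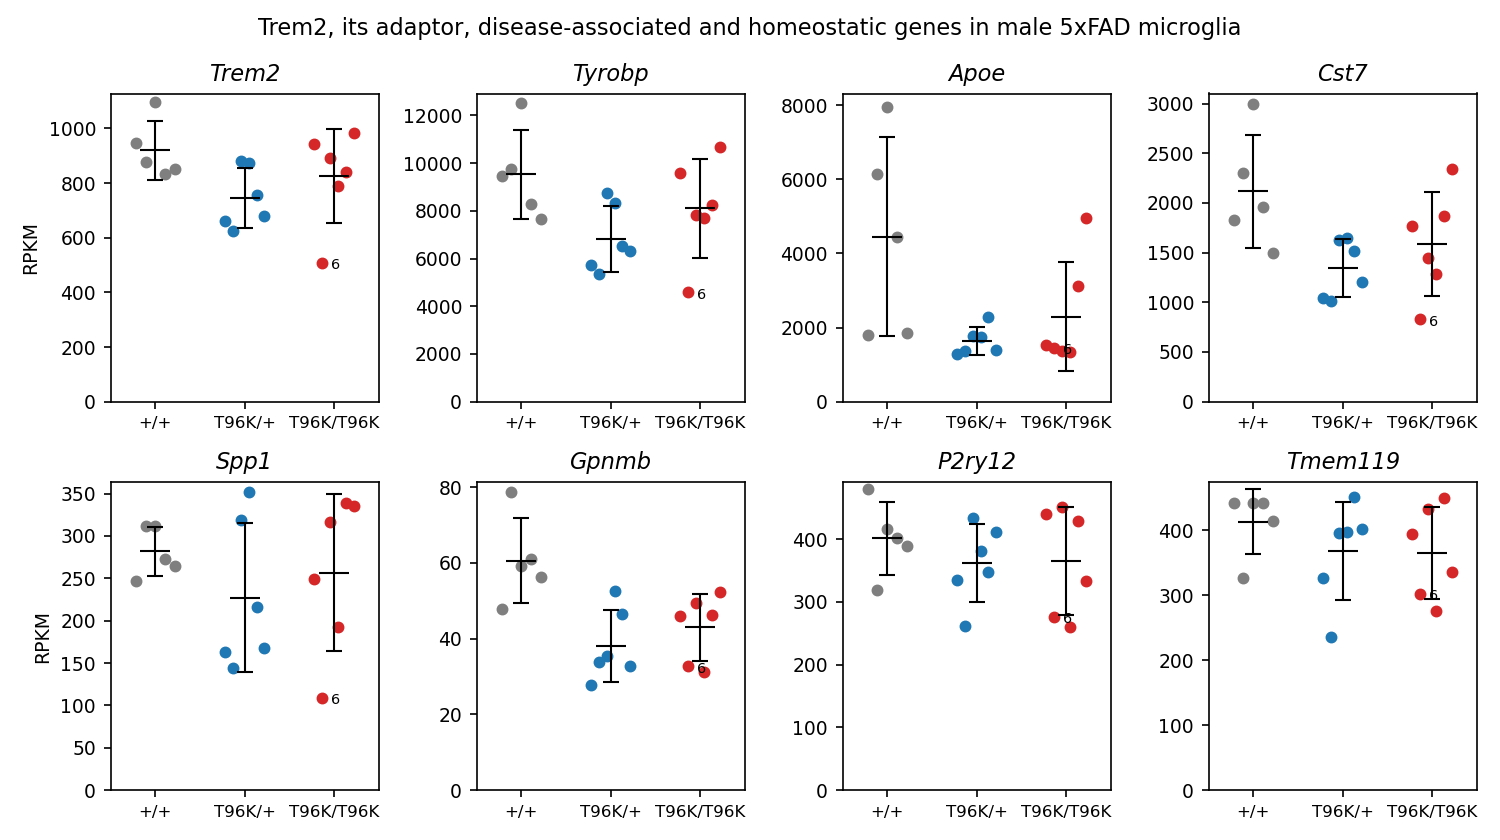
RPKM of 8 genes in each male library, with the mean and SD of each genotype in black; library 6 of the T96K/T96K group is marked. The T96K/+ (blue) and T96K/T96K (red) points overlap in every panel, and library 6 is the lowest T96K/T96K point for Trem2, Tyrobp, Cst7 and Spp1.

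Homeostatic genes were at nearly the same mean in both groups. P2ry12, the purine receptor that guides microglial processes, was measured at 335, 261, 434, 381, 347 and 412 RPKM in T96K/+ and at 441, 276, 451, 259.7, 429 and 333 RPKM in T96K/T96K. The ranges of the groups were close to each other, and libraries 6 and 11 sat at the low end of T96K/T96K. The log2 difference was -0.00 with an interval of -0.34 to 0.33, which runs from 0.791-fold to 1.26-fold. The differences of Tmem119 (-0.01, -0.34 to 0.33), of the fractalkine receptor Cx3cr1 (-0.01, -0.35 to 0.33) and of Csf1r, the receptor for the survival factor CSF1 (-0.02, -0.34 to 0.31), were equally near 0. Of 28 homeostatic genes tested, 14 lay above 0 and 14 below, the median was 0.00, and 27 had an interval within 1.5-fold. After quantile normalization 5 of 28 lay above 0, with a median of -0.08. The 10 microglial markers of the sort check, some of which are in this list too, had a median of 0.02, with 6 of 10 above 0.

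The lysosome was represented by 33 tested genes, of which 30 lay above 0, with a median of 0.13 and 0 called. The mean log2 level of the list was 8.57 in Trem2+/+, 8.27 in T96K/+ and 8.38 in T96K/T96K males. The protease Ctsd, the most abundant of these in reads per length, was at 15835 ± 3473 RPKM in T96K/+ and 18009 ± 5249 RPKM in T96K/T96K (0.16, -0.28 to 0.59). Grn, which encodes progranulin, and the membrane proteins Cd68 and Cd63 had the highest values (0.22, 0.22 and 0.23), and Tmem106b and the mannosidase Man2b1 the lowest (-0.12 and -0.10). After quantile normalization 17 of 33 lay above 0, with a median of 0.00. The proton pump list had a median of 0.07 with 12 of 16 above 0.

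Genes of lipid handling split, with 15 of 22 above 0 and a median of 0.03. The oxysterol enzyme Ch25h (0.24), the fatty acid binding protein Fabp5 (0.22) and Apoe were at the upper end, and the scavenger receptor Cd36 (-0.24), the oxysterol-sensing nuclear receptor Nr1h3 (-0.20) and the cholesterol exporters Abcg1 (-0.10) and Abca1 (-0.08) at the lower end. In cholesterol biosynthesis, 15 of 20 genes lay above 0, the median was 0.12, and 2 of 20 had an unadjusted p under 0.05, both higher in T96K/T96K, beside 1.7% of all genes in that direction. Fdps, which makes farnesyl diphosphate, was at 30.9, 30.1, 40.4, 35.3, 35.0 and 31.3 RPKM in T96K/+ and at 39.8, 37.6, 40.4, 37.1, 44.1 and 44.5 RPKM in T96K/T96K. All T96K/T96K values exceeded those of T96K/+ libraries other than number 8 (log2 difference 0.26, 0.09 to 0.43; unadjusted p = 0.00487, adjusted p = 0.999). Sqle, the squalene epoxidase that follows later in the same pathway, was at 3.53 ± 0.483 and 4.27 ± 0.404 RPKM (0.22, 0.04 to 0.40; adjusted p = 0.999). Insig1, which responds to cell sterol, was at -0.08.

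Among immune lists, 24 of 35 type I interferon genes lay above 0, with a median of 0.05. At an unadjusted p under 0.05, 1 of 35 was lower in T96K/T96K and 0 were higher, beside 0.766% of all genes lower. It was Cmpk2, an interferon-induced mitochondrial kinase. Its values were 12.9, 11.8, 6.65, 8.54, 13.6 and 10.2 RPKM in T96K/+ and 6.64, 9.84, 6.45, 6.76, 7.66 and 6.09 RPKM in T96K/T96K. Most T96K/T96K libraries were near the lowest T96K/+ value, with library 6 the highest of them (-0.48, -0.85 to -0.10; adjusted p = 0.999). MHC class I genes had a median of 0.08 (14 of 17 above 0), MHC class II genes 0.14 (7 of 10, with the class II transactivator Ciita at -0.14 and H2-Eb1 at 0.21) and complement genes 0.07 (9 of 13), with 0 members of these at an unadjusted p under 0.05. Inflammatory and NF-kB genes had a median of 0.11 (25 of 31), from the chemokine Cxcl1 at -0.31 to the cytokine Il1b at 0.35. Immediate early and heat shock genes, which respond to tissue handling, were centred at 0.02 (14 of 26).

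All 59 cytosolic ribosomal protein genes had a difference above 0, the lowest being Rpl15 at 0.04, with a median of 0.14. Each of the 59 intervals lay within 1.5-fold, and 0 were called. At an unadjusted p under 0.05, 1 of 59 was higher, beside 1.7% of all genes in that direction. Ribosomal protein genes have many near-identical pseudogene copies, so that counts can be split among them. After quantile normalization 53 of 59 lay above 0 with a median of 0.07. Among the 12 libraries the mean log2 level of the list was highest in T96K/T96K libraries 11, 5 and 10 (7.12, 6.97 and 6.87), in which neutrophil markers were also highest. With marker levels of endothelial cells, oligodendrocytes and neutrophils as covariates, 11 of 59 lay above 0. The part of those cells in the ribosomal values was not tested beyond that fit. Oxidative phosphorylation genes had a median of 0.06 (41 of 50 above 0), glycolysis genes 0.11 (18 of 23), proteasome genes 0.06 (27 of 31), unfolded protein response genes 0.05 (17 of 23) and autophagy genes 0.00 (18 of 31). Within autophagy, Atg7 (0.23) and Atg13 (-0.19) lay apart from the other members, each with an unadjusted p under 0.05, beside 2.47% of all genes. Of 26 tested genes near Alzheimer risk loci, 15 lay above 0 with a median of 0.05, from Fermt2 at -0.26 and App at -0.20 to Apoe at 0.31.

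Cell cycle genes had a median of 0.15, with 21 of 25 above 0 and 2 of 25 higher at an unadjusted p under 0.05, beside 1.7% of all genes in that direction. Ccnb2, a mitotic cyclin, was at 3.44, 2.63, 4.84, 7.45, 3.40 and 3.67 RPKM in T96K/+ and at 13.1, 4.35, 8.12, 6.15, 6.06 and 5.82 RPKM in T96K/T96K. Library 5 stood highest, and T96K/+ library 9 was the single T96K/+ library in the upper part of the T96K/T96K range (0.64, 0.18 to 1.10; unadjusted p = 0.00891, adjusted p = 0.999). Aurka, a mitotic kinase, was at 1.05 ± 0.290 and 1.53 ± 0.451 RPKM and its groups did not overlap (0.30, 0.03 to 0.57), although at about 1 RPKM it is among the lowest genes tested. The S-phase helicase genes Mcm2, Mcm4 and Mcm7 stood at -0.00, -0.01 and -0.01.

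**Figure D3:**
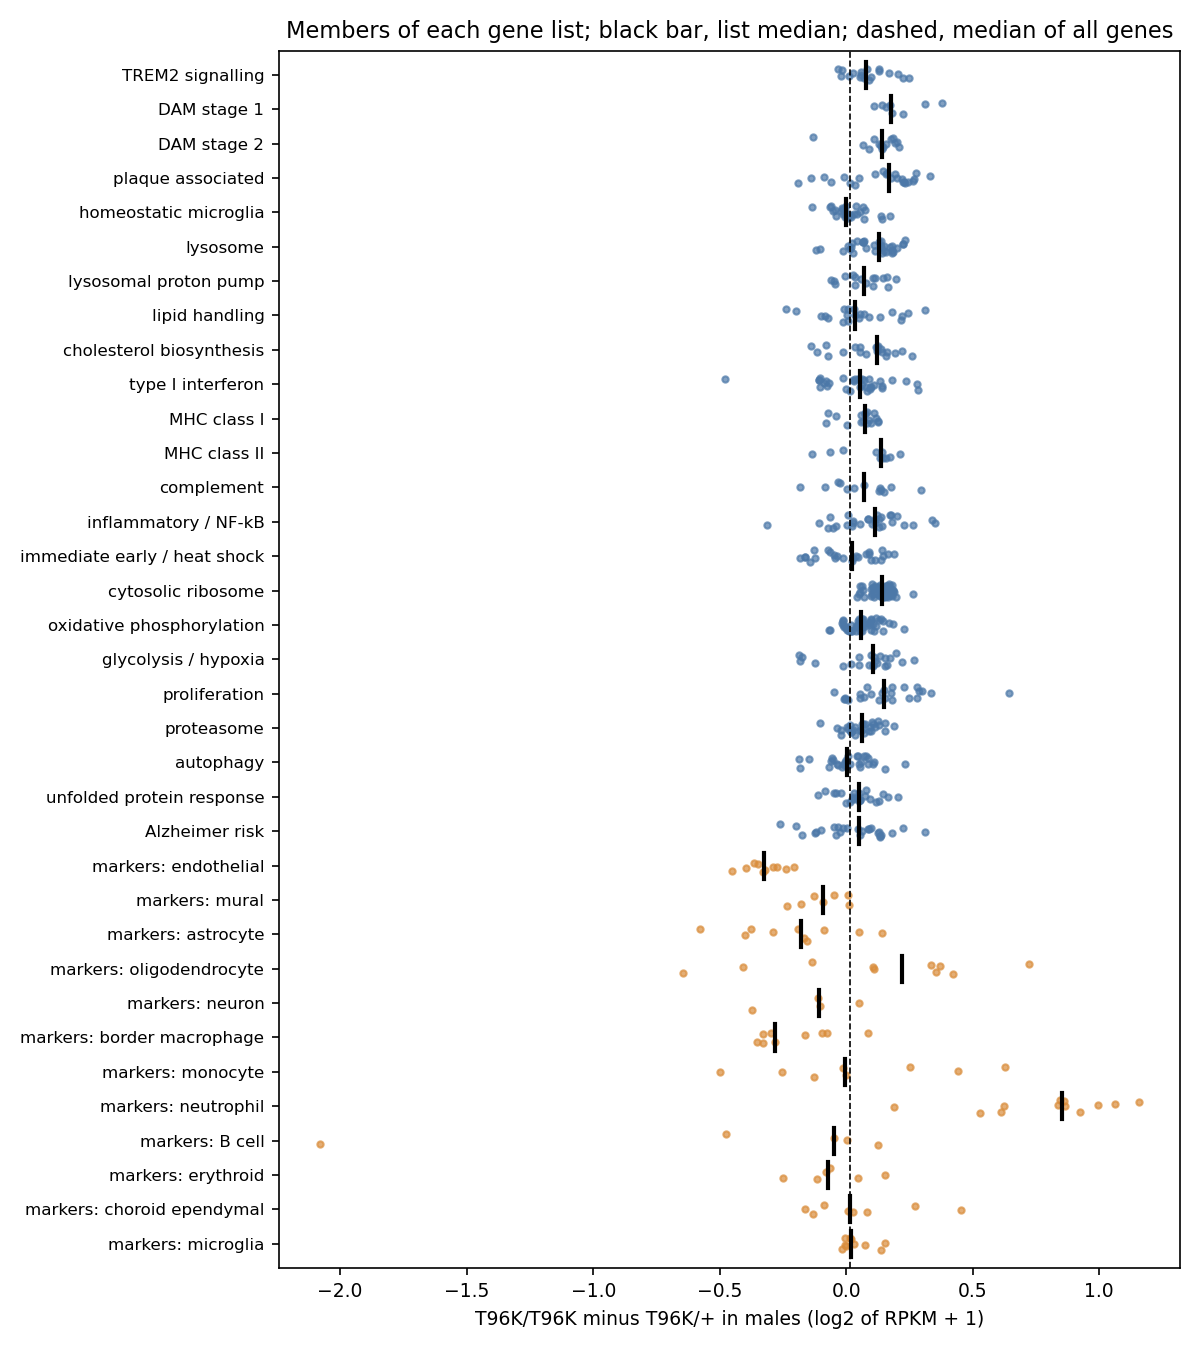
Each point is the T96K/T96K minus T96K/+ difference (log2 of RPKM + 1) of 1 tested gene, by list, with pathway lists in blue and cell type marker lists in orange; black bars are list medians and the dashed line is the median of all genes, 0.01. Pathway medians lie between 0.00 and 0.18, endothelial markers are centred at -0.33 and neutrophil markers at 0.85.

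Few genes had groups without overlap. The 6 T96K/T96K values lay all above the 6 T96K/+ values for 10 genes (0.0722%) and all below for 4 genes (0.0289%). Without library 6 there were 64 such genes of 13845 in both directions together. Smaller groups separate more readily, and leaving out any single library of the 2 groups raised this count. Of the genes with the smallest p among protein-coding genes at a mean of 2 RPKM or more, only Serpinb1a and Zfp846 were separated in this way. Serpinb1a (ENSMUSG00000044734, chromosome 13 at 32933961 to 32943054), an inhibitor of neutrophil serine proteases, was at 3.49, 3.94, 2.93, 2.80, 3.02 and 2.75 RPKM in T96K/+ and at 4.70, 5.82, 5.62, 6.56, 3.97 and 4.11 RPKM in T96K/T96K. The lowest T96K/T96K value, in library 15, was just above the highest T96K/+ value (0.55, 0.26 to 0.84; unadjusted p = 0.000923, adjusted p = 0.999). Zfp846, a zinc finger gene, was at 2.99 ± 0.697 and 2.10 ± 0.235 RPKM (-0.35, -0.58 to -0.13; adjusted p = 0.999).

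The other 9 higher genes of smallest p, not called, were Pmf1, Bik, Ddx39, Pars2, Dnttip1, Fdps, Slc17a9, AA386476 and Tmem41a, with differences of 0.22 to 0.75. Pmf1 (ENSMUSG00000028066), a kinetochore component, was at 6.03, 5.37, 7.67, 6.59, 5.73 and 6.96 RPKM in T96K/+ and at 9.83, 7.19, 9.18, 9.82, 8.43 and 7.60 RPKM in T96K/T96K. Only T96K/+ library 8 reached into the T96K/T96K range (0.39, 0.19 to 0.59). Bik (ENSMUSG00000016758), a pro-apoptotic BH3-only gene, was at 3.34, 2.45, 7.69, 3.11, 3.12 and 4.32 RPKM in T96K/+ and at 7.91, 5.04, 7.46, 7.80, 6.26 and 8.24 RPKM in T96K/T96K. Again library 8 was the single T96K/+ library among the T96K/T96K values (0.75, 0.36 to 1.15; unadjusted p = 0.000934, adjusted p = 0.999). Slc17a9, the vesicular nucleotide transporter, was at 4.45 ± 0.853 and 6.25 ± 1.20 RPKM (0.41, 0.14 to 0.68).

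On the lower side, the genes of smallest p were Def8, Dut, Zfp846, Zfp84, Phf13, Gosr1, Pex10, Cog3, Ankrd34a and Nr4a2, with differences of -0.55 to -0.22. Dut (ENSMUSG00000027203), the dUTPase that keeps uracil out of DNA, was at 4.75, 4.97, 5.22, 3.86, 4.13 and 4.58 RPKM in T96K/+ and at 4.04, 3.59, 3.05, 4.26, 2.93 and 3.29 RPKM in T96K/T96K. The 2 ranges overlapped between 3.86 and 4.26 RPKM (-0.31, -0.50 to -0.12; adjusted p = 0.999). Gosr1 and Cog3, both of Golgi membrane traffic, stood at -0.26 and -0.22, and Pex10, a peroxisome assembly factor, at -0.30. Nr4a2, an inducible nuclear receptor, was at 2.71 ± 0.697 and 1.76 ± 0.615 RPKM (-0.44, -0.74 to -0.13).

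Of the lists with 3 or more tested genes, neutrophil markers had the median farthest from 0. All 12 tested members had a higher mean in T96K/T96K, with a median log2 difference of 0.85 and a range of 0.19 to 1.16, and 8 of 12 had an unadjusted p under 0.05, beside 1.7% of all genes in that direction; 0 were called. S100a9, a calcium-binding protein abundant in neutrophils, was at 582, 758, 1114, 986, 842 and 983 RPKM in T96K/+ and at 2512, 969, 1909, 2452, 1249.8 and 1022 RPKM in T96K/T96K. Libraries 5, 10 and 11 were far above every T96K/+ library, library 15 was just above, and libraries 6 and 24 were inside the T96K/+ range (0.86, 0.24 to 1.48; unadjusted p = 0.00937, adjusted p = 0.999). Lcn2, which encodes the iron-siderophore binding protein lipocalin 2, was at 14.1, 16.7, 35.7, 28.2, 17.6 and 20.9 RPKM in T96K/+ and at 74.3, 20.2, 61.9, 67.4, 28.6 and 34.9 RPKM in T96K/T96K. The same 3 libraries were again highest (0.995, 0.33 to 1.66; unadjusted p = 0.00607, adjusted p = 0.999). The granule gene Ltf stood at 1.16, the surface marker Ly6g at 1.06, Ngp at 0.93 and S100a8 at 0.84, while Csf3r, the receptor for granulocyte colony-stimulating factor, was at 88.7 ± 9.70 and 103 ± 21.2 RPKM (0.19, -0.09 to 0.47).

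Trem2+/+ males had neutrophil sums of 2500 to 7058 RPKM, beside 1826 to 3832 RPKM in T96K/+ and 2974 to 8478 RPKM in T96K/T96K, so the 3 ranges overlapped. The mean sums were 4959 ± 1957 RPKM in Trem2+/+, 2950 ± 720 RPKM in T96K/+ and 5660 ± 2530 RPKM in T96K/T96K (SD). Mean log2 levels of the list were 6.30, 5.46 and 6.25 in the same order, so T96K/+ was the lowest group and T96K/T96K was near Trem2+/+. Leaving out single libraries gave list medians of 0.697 to 0.996 and 3 to 11 members at an unadjusted p under 0.05, with 3 when T96K/+ library 3, T96K/T96K library 5 or T96K/T96K library 11 was left out. Over all 13845 genes, 161 to 685 were higher at that p in the same fits. Monocyte markers were centred at -0.01 (4 of 8 above 0), from Fn1 at -0.50 to Chi3l3 at 0.63. Border macrophage markers, such as Mrc1 (-0.30) and Pf4 (-0.33), had a median of -0.28 with 1 of 9 above 0. In B cell markers, 2 of 5 were lower at an unadjusted p under 0.05, beside 0.766% of all genes in that direction, and 0 of 5 were without library 6: the antigen receptor component Cd79a at 0.982 ± 0.540 and 0.391 ± 0.185 RPKM, and Igkc, which ran from 3.03 to 50.6 RPKM in T96K/+ and was at most 4.14 RPKM in T96K/T96K apart from 69.9 RPKM in library 15.

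Endothelial markers were lower in mean in T96K/T96K for 10 of 10 genes, with a median of -0.33, 0 at an unadjusted p under 0.05 and 0 intervals within 2-fold. Cldn5, a tight junction protein of brain vessels, was at 561, 427, 139, 184, 471 and 523 RPKM in T96K/+ and at 155, 592, 169.8, 527, 139 and 289 RPKM in T96K/T96K. High and low libraries occurred in both groups, high in T96K/+ libraries 3, 4, 14 and 22 and in T96K/T96K libraries 6 and 11 (-0.36, -1.29 to 0.56). Astrocyte markers had a median of -0.18 (2 of 10 above 0), mural markers -0.09 (2 of 7) and oligodendrocyte markers 0.22 (7 of 10), where Mag, a myelin glycoprotein, was at 14.4 ± 1.96 and 18.99 ± 4.84 RPKM (0.35, 0.06 to 0.65; adjusted p = 0.999). Choroid plexus and ependymal markers had a median of 0.02 (5 of 8 above 0), erythroid markers -0.07 (2 of 6) and neuronal markers -0.11 (1 of 4). Of 6 markers of oligodendrocyte precursors and 10 of T and NK cells, 1 each passed the filter on low values, and the T and NK cell markers summed to 1.12 to 4.50 RPKM in T96K/+ and 1.72 to 3.35 RPKM in T96K/T96K.

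**Figure D4:**
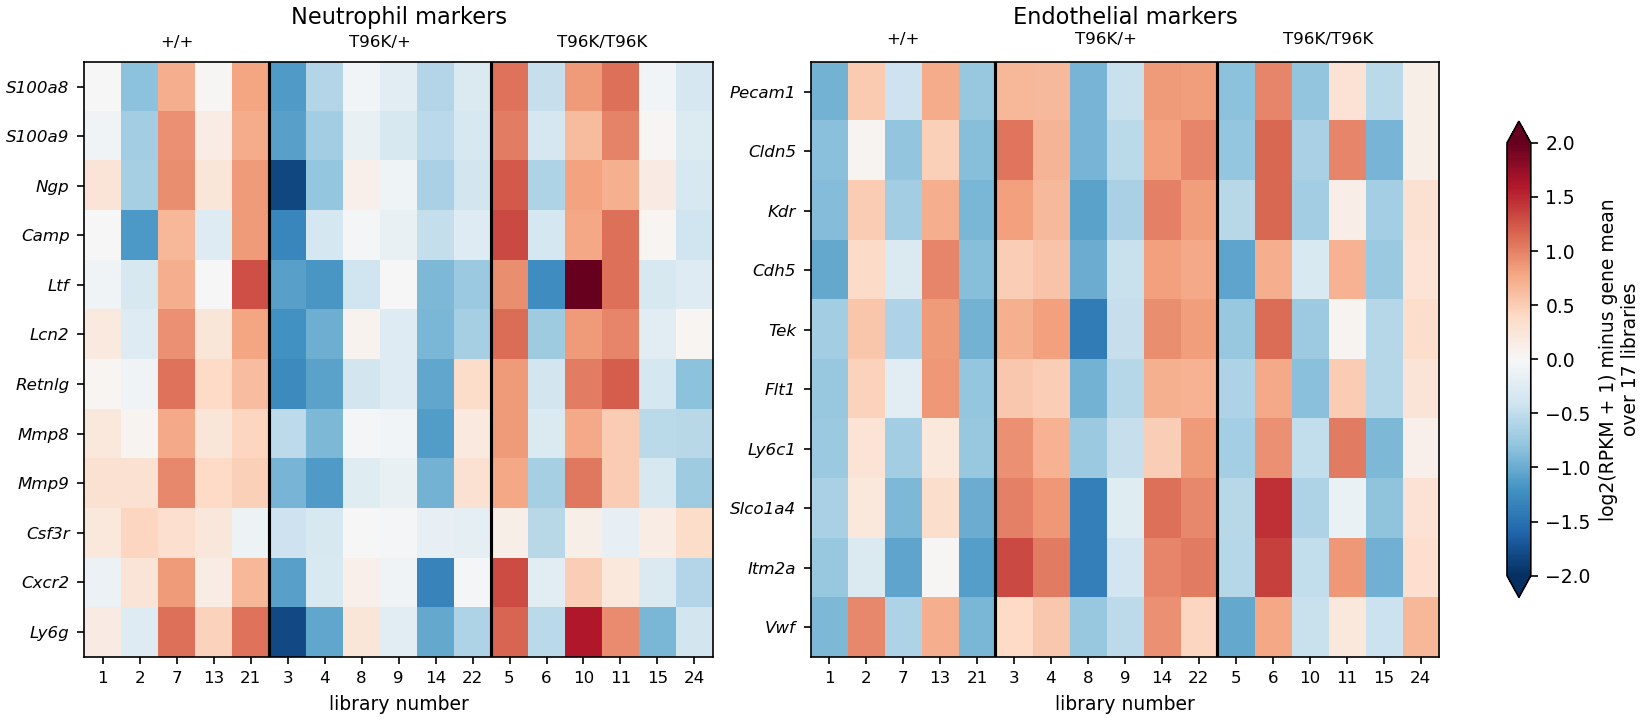
Level of each neutrophil and endothelial marker in every male library, as log2(RPKM + 1) minus the mean of the gene over 17 libraries; columns are libraries by genotype and number. Neutrophil markers are high together in T96K/T96K libraries 5, 10 and 11 and in Trem2+/+ libraries 7 and 21. Endothelial markers are high in T96K/+ libraries 3, 4, 14 and 22, T96K/T96K libraries 6 and 11 and Trem2+/+ library 13.

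Libraries of 1 genotype lay far apart. The first principal component of the 17 male libraries held 22.4% of the variance and placed T96K/T96K library 6 (-41.8) and T96K/+ libraries 4, 3 and 14 (-29.0, -27.9 and -25.4) at one end and T96K/T96K library 5 (24.4) and Trem2+/+ library 1 (29.5) at the other. The 4 libraries at the low end had endothelial sums of 2405 to 3097 RPKM and microglial sums of 6304 to 8868 RPKM, beside 751 to 1618 and 8904 to 10676 RPKM in T96K/T96K libraries 5, 10, 15 and 24. T96K/T96K library 11 (-14.8) and T96K/+ library 22 (-7.58) lay between these on the component. Their endothelial sums, 2577 and 2666 RPKM, were inside the range of the low end, and their microglial sums were 7759 and 8833 RPKM. In library 6 the complement gene C1qa was at 2339.8 RPKM against 3678 to 4319.9 RPKM in the other T96K/T96K libraries, and Capg at 95.6 against 144 to 182 RPKM. Within lists, leaving it out placed 17 of 18 TREM2 signalling genes, 20 of 24 plaque-associated genes and 23 of 28 homeostatic genes above 0, with medians of 0.19, 0.31 and 0.07. It also gave 31 of 33 lysosome genes (median 0.21), 14 of 16 proton pump genes (0.13), 15 of 22 lipid handling genes (0.09), 16 of 20 cholesterol genes (0.09) and 23 of 25 cell cycle genes (0.23). Immune lists then had 28 of 35 interferon genes (0.11), 15 of 17 MHC class I genes (0.14), 9 of 10 class II genes (0.27), 10 of 13 complement genes (0.13) and 28 of 31 inflammatory genes (0.19) above 0. All 59 ribosomal protein genes stayed above 0 (0.20), 7 of them at an unadjusted p under 0.05, beside 685 of 13845 genes higher in that fit. In it 0 members of any list were called. Over the 23 alternatives, the TREM2 signalling median ran from 0.03 to 0.19, with 12 to 18 genes above 0. Plaque-associated genes ran from 0.06 to 0.31 (16 to 21 of 24 above 0). Homeostatic genes ran from -0.08 to 0.07 (5 to 23 of 28) and lysosome genes from 0.00 to 0.21 (17 to 32 of 33). The fit without library 6 was at the upper end of each range of medians. How far vascular RNA enters the differences between the T96K groups was not tested by itself. The fit with marker levels as covariates held endothelial, oligodendrocyte and neutrophil levels together, so it cannot separate them. In that fit 14 of 15 DAM stage 2 genes and 11 of 59 ribosomal protein genes lay above 0, beside 49.8% of all genes. It called 0 genes of the table.

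One library labelled female T96K/+, number 22, had Xist at 0.416 and Ddx3y at 14.4 RPKM, against its label. The main female values are given with and without it, and the others include it. In females the same contrast also gave 0 called genes of 14591 (0%) with limma, with 514 (3.52%) at an unadjusted p under 0.05, and without library 22 it gave 0 called and 505 at that p. The difference between the sexes was tested directly in a fit of all 44 libraries, and 0 of 13636 genes (0%) passed, with 238 (1.75%) at an unadjusted p under 0.05; this difference without library 22 had 0 called and 280 at that p. The difference of Trem2 was 0.13 in males and 0.07 in females (-0.44 to 0.58), and that of Tyrobp 0.22 and 0.24, and without library 22 the female values were 0.02 and 0.19. Tmem119 was at -0.01 in males and -0.63 (-1.32 to 0.07) in females, and males minus females was 0.62 (-0.25 to 1.49, adjusted p = 0.9999). Without library 22 the last 2 differences of Tmem119 were -0.68 and 0.67. Of 28 homeostatic genes, 14 lay above 0 in males and 1 in females (2 without library 22), and 0 of the 28 had an unadjusted p under 0.05 for the difference between the sexes.

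Neutrophil markers were higher in mean in female T96K/T96K as well, for 11 of 12 genes with a median of 1.75, and 10 of 12 had an unadjusted p under 0.05, beside 1.81% of all genes in that direction. Without library 22 the female list had 11 of 12 above 0, a median of 1.80 and again 10 of 12 at that p. S100a9 stood at 1.93 (0.30 to 3.57; adjusted p = 0.978) in females, and at 2.06 without library 22. Monocyte markers lay above 0 in 8 of 8 in females, with a median of 1.29, against 4 of 8 in males, and 2 of 8 had an unadjusted p under 0.05 for the difference between the sexes, beside 1.75% of all genes. Endothelial markers went the other way, above 0 for 10 of 10 in females (median 0.40) and 0 of 10 in males, with 0 of 10 at an unadjusted p under 0.05 for that difference, and 1 of 10 without library 22. Without that library the female medians were 1.29 for monocyte and 0.45 for endothelial markers. With library 22 included, the genes of smallest p for males minus females, not called, were Utp15 (0.46), Tmem184c (0.39), Zfp846 (-0.55), Smug1 (0.54) and Mtif3 (0.34). Without it Ankrd34a had a smaller p than Zfp846. Zfp846, lower without overlap in males, stood at 0.20 (-0.10 to 0.49) in females, and at 0.14 without library 22.

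**Figure D5:**
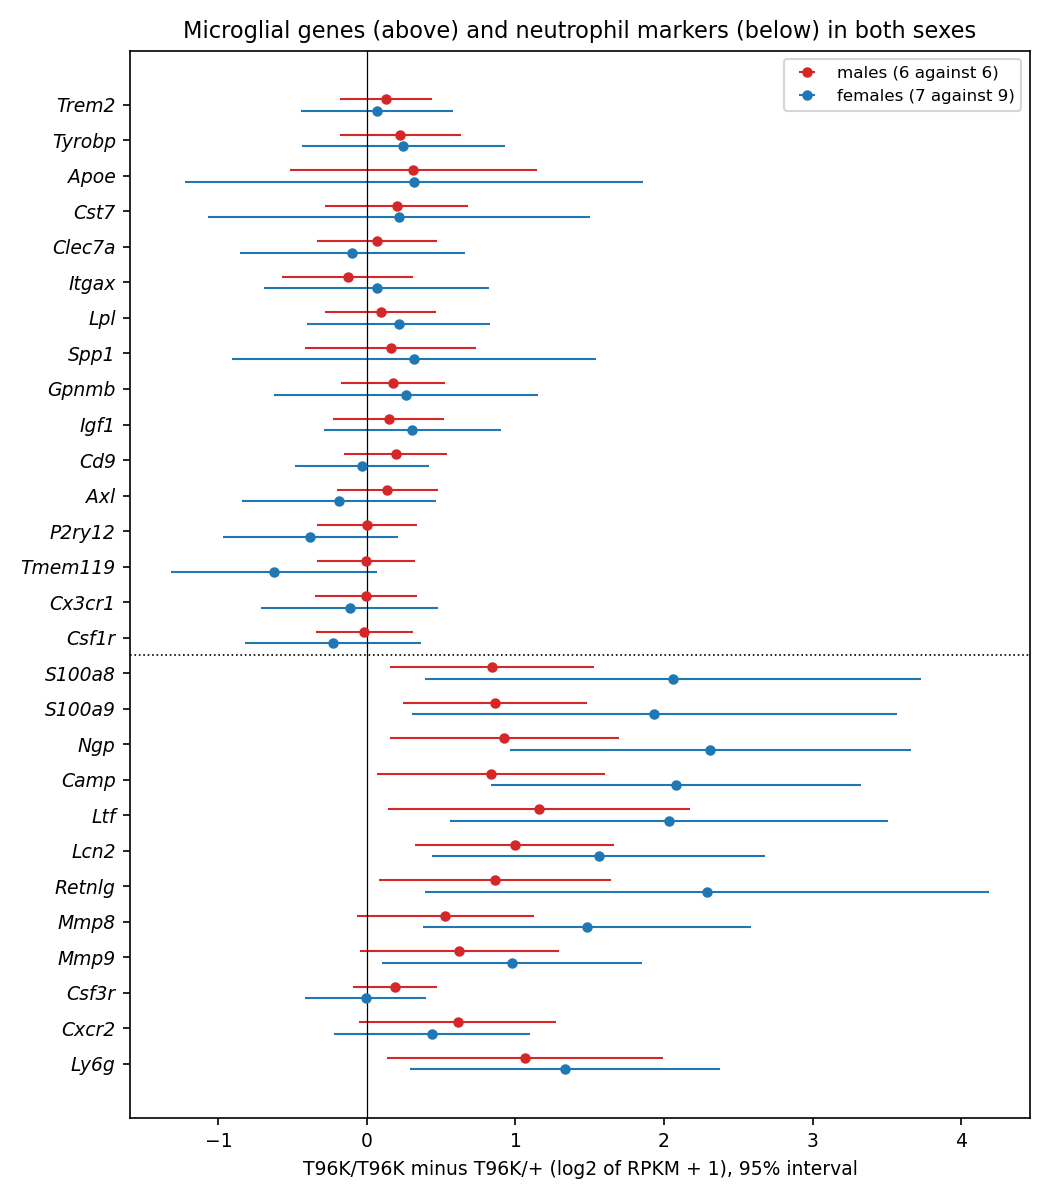
T96K/T96K minus T96K/+ differences (log2 of RPKM + 1) with 95% intervals in males (red) and females (blue), for 16 microglial genes above the dotted line and 12 neutrophil markers below it. Intervals of all 16 microglial genes span 0 in both sexes, and female intervals are wider. The female group includes library 22.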

How the data were processed

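The 44 libraries were made from brain microglia sorted for CD11b and CD45 per the series design text and sequenced after low-input poly(A) cDNA synthesis and Nextera XT preparation, per the labels' protocols. That preparation keeps no strand information, so overlapping antisense genes are not separable. The submitters' processing notes name STAR, HTSeq, edgeR and mm9. The deposited values are RPKM for 37583 genes, scaled by the authors in separate tables of 17 male and 27 female libraries, so levels were tested only inside 1 table, and the sexes only by their genotype differences. Multiplied back by gene length, 100.0% of values were whole reads within 0.01, which gave the depths. Gene names lost to dates (25) were restored from identifiers, and 37168 identifiers (98.9%) matched the mm9 annotation.

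Genes at 1 RPKM or more in at least 5 libraries were tested with limma 3.58.1 (R 4.3.3, trend and robust options) on log2(RPKM + 1), a scale that understates changes of low genes. The male fit held 1 mean per genotype over 17 libraries, and the sex difference used 44. Calls needed a Benjamini-Hochberg adjusted p under 0.05 over all genes tested. The fit was tested on simulated data. Depth and detected genes were compared by exact permutation over 924 splits.

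The members and the 37 gene lists (23 pathways, 14 cell types) were chosen with earlier results of these data known. Named genes were 16 microglial genes, the 10 of smallest p in each direction (protein-coding, mean of 2 RPKM or more, predicted models left out), the 2 of smallest p in each list and the 5 of smallest p for the sexes; other list members are named as examples, as were Aurka and members that lie at the ends of a list, after their values were seen. Alternatives were the low-value filter, pseudocount, scaling, depth, library number, marker levels, libraries left out and, chosen after seeing the data, voom on recovered reads and the female contrast without library 22. Values of some list members are not reported here.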

Additional observations from a re-analysis of the deposited data

Results flagged for a closer look

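Of 222 groups of values checked for a single library far from the rest, 15 had one, where 1 in 20 of the groups would be 11.1. The groups share the same libraries and are not independent, so 11.1 is not a count expected by chance here. In T96K/T96K library 6 was low for 5 genes: Trem2 (508 RPKM), Capg (95.6), Fabp5 (30.1), Gapdh (292) and C1qa (2339.8). Aurka was high in T96K/T96K library 5 (2.43 RPKM) and low in T96K/+ library 3 (0.517 RPKM). Alas2, an erythroid gene, was high (4.63 RPKM) and Tmem184c low (5.80 RPKM) in T96K/T96K library 11. In T96K/+, Ankrd34a was low (2.69 RPKM) and Utp15 high (8.35 RPKM) in library 9, Snap25 was high (4.71 RPKM) in library 8, and Ms4a7 was low (2.52 RPKM) in library 4. Depth stood apart in T96K/+ library 22 (29.8 M reads) and T96K/T96K library 24 (32.2 M reads). Trem2+/+ library 21, not part of this check, held 34.1 M reads.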

How the results depend on the processing

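The count of called genes was 0 in males under 23 alternatives and 0 for the difference between the sexes under 20. The unadjusted count in males ran from 164 (filter of 5 RPKM) to 1048 (without T96K/T96K library 6), and it was 530 without T96K/+ library 8, where the smallest adjusted p of any male alternative, 0.114, occurred. The unadjusted split between higher and lower genes was 236 and 106, but 231 and 263 with marker levels as covariates and 282 and 214 with voom on recovered reads. For the sexes the unadjusted count ran from 94 to 710. Of 108 named genes, 84 kept their sign under every alternative run, and 0 were called under any. The number of genes without overlap between groups was 14; it was 26 with no filter, 0 with the 5 RPKM filter, 9 after quantile normalization, 31 in shallow libraries only, and 19 to 64 when 1 library was left out. The difference in depth was 1.58 M reads, and -2.21 to 5.20 M when 1 library was left out. The edgeR and DESeq2 fits planned on recovered reads were not run, since the deposited unit is RPKM; voom on the same reads took their place. No paired analysis was possible because each library number occurs once within the male table.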
